A study of Xenopus laevis with 3 samples.

Results

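The microRNAs described here are 10 Xenopus entries of 7 families that mark blood cells and vessels: miR-144 and miR-451 of red cells, miR-142, miR-150, miR-155 and miR-223 of white cells, and miR-126 of the endothelium. They were chosen by family number among the 178 Xenopus entries of a table of 1272 mature microRNA entries, a rule that uses no measured value, although the list was drawn up with earlier results of these data known. The entries xla-miR-142 of X. laevis and xtr-miR-142-5p of X. tropicalis have 1 sequence and the same counts, so 9 distinct sequences remained, of 166 distinct Xenopus sequences in all. Of these 9, 2 belong to the red cell group, 5 to the white cell group and 2 to the endothelial group.

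The study sequenced small RNA of neuronal tissue from the accessory olfactory bulb, which receives vomeronasal input in the forebrain, in Xenopus laevis larvae aged 15 days (stage 45). The larvae had been raised in conditions named orphan, sibling and non-sibling, in a study whose title concerns microRNA control of transmitter switching and social preference. There was 1 library per condition, so no difference below has a replicate check and no p-value can be given. Each ratio compares 2 libraries, not the conditions. The labels name 15 larvae without saying how they were spread over the conditions, and they describe neither the rearing nor any strain or further treatment. The labels state that the tissue was cut out of frozen sections of 50 µm and do not say whether the blood had been removed.

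MicroRNAs are short RNAs that guide Argonaute proteins to messenger RNAs, mainly through the seed near the 5′ end. In mammals and zebrafish miR-144 and miR-451 come from 1 shared transcript of the red cell lineage, and miR-451 is cut by Argonaute itself and not by Dicer. miR-142 is found across blood cell lineages, miR-150 in mature lymphocytes, miR-155 in activated lymphocytes and macrophages, and miR-223 in neutrophils and their precursors. miR-126, which lies in an intron of the Egfl7 gene, is abundant in endothelial cells and acts in vessel growth and integrity. Brain tissue holds capillaries, and the red cells of frogs keep their nuclei.

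The 9 sequences are shown from 5′ to 3′ with the seed (bases 2 to 8) in capitals, because each entry is defined by its sequence and the members share no seed.
xtr-miR-144: uACAGUAUagaugauguacua
xtr-miR-451: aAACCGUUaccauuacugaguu
xtr-miR-142-5p: cAUAAAGUagaaagcacuac
xtr-miR-142-3p: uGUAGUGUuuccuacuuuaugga
xtr-miR-150: uCUCCCAAcccuuguaccagag
xtr-miR-155: uUAAUGCUaaucgugauagggg
xtr-miR-223: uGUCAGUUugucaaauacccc
xtr-miR-126-3p: uCGUACCGugaguaauaaugc
xtr-miR-126-5p: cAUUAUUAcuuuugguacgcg

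The 9 sequences had 9 different seeds, and no entry of another family in the table shared any of them. The nearest Xenopus sequence of another family was at least 6 edits away (bases changed, added or removed), with xtr-miR-144 the closest to such a neighbour. They were 20 to 23 bases long, with a GC content from 28.6% in xtr-miR-144 to 54.5% in xtr-miR-150 (median 38.1%, against 43.5% over all distinct Xenopus sequences). Another 49 entries of other species belong to the same 7 families, and 7 of them are identical in sequence to a member.

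The libraries differed in depth. The total count, in which reads listed under several species' entries weigh more than once, was 22538325 (orphan), 865654 (sibling) and 5188106 (non-sibling). Levels are given as scaled CPM, counts per 1000000 of the effective library size (trimmed mean of M values), where 1 count is worth 0.0472, 1.41 and 0.148 in the same order. Values given in threes without further labels follow the order orphan, sibling, non-sibling. Intervals are 95% intervals of the counting error alone. Whether molecular identifiers were used is not given in the sources used here, and reads amplified without them do not stand for independent molecules. A count of 0 allows a level of up to 4.23 scaled CPM in the sibling library by the floor of 3 counts, a one-sided limit, while the 2-sided Poisson interval of 0 counts ends at 5.20.

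Of the counts of distinct Xenopus sequences, the members took 0.923% for orphan (exact binomial interval 0.914 to 0.932%). For sibling their share was 0.711% (0.673 to 0.751%), and for non-sibling 0.890% (0.871 to 0.909%). Of the same counts xtr-miR-92b alone held 83298 of 4334408 (orphan), 44582 of 181714 (sibling) and 20554 of 973416 (non-sibling). Its large part in the sibling library lowers the sibling share of every other sequence, members and neuron markers included. Shares without it were not calculated, so the low sibling shares are not read as lower levels. Markers of neurons, muscle and skin took larger shares in every library. The 8 neuron markers took 4.65, 2.14 and 7.36%. The 7 muscle markers ranged from 1.73 to 2.34% and the 3 skin markers from 1.48 to 2.95%, while the 3 gut markers stood at 0.225, 0.517 and 0.907%, so that markers of several tissues were counted beside those of neurons. The part of those tissues in the results below was not tested. In such bulk tissue, fewer cells of a type and less RNA per cell cannot be told apart.

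**Figure D1:**
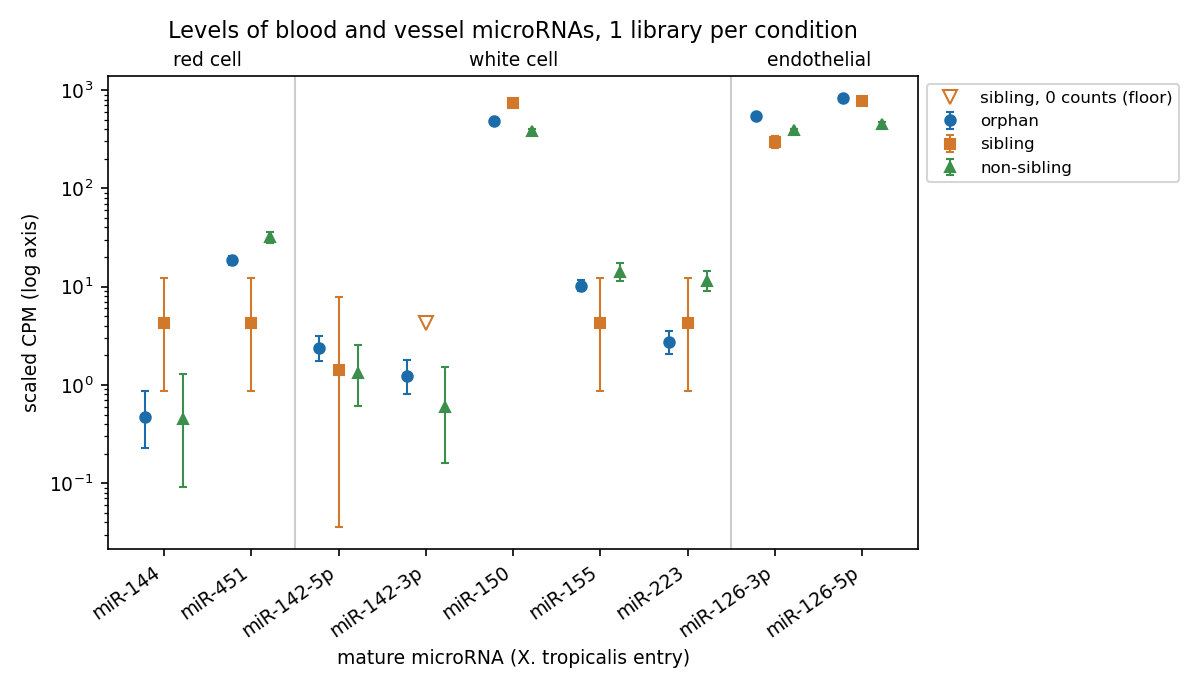
Scaled CPM (log axis) of the 9 distinct members in the orphan (circles), sibling (squares) and non-sibling (triangles) libraries, with exact Poisson 95% intervals; the open triangle marks the floor of 4.23 for the 0 counts of miR-142-3p in the sibling library. miR-150 and both arms of miR-126 lie between 299 and 832, and the other 6 lie at 31.8 or lower.

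The members fell into an abundant and a scarce set. miR-150 and both arms of miR-126 ranked between 33 and 58 among the 166 distinct Xenopus sequences in all 3 libraries. The other 6 members ranked between 108 and 157. In the sibling library these 6 held 3 counts or fewer each, and xtr-miR-144, xtr-miR-451, xtr-miR-155 and xtr-miR-223 held exactly 3. Of the 166 Xenopus sequences, members included, 33 held 3 counts or fewer there and 12 held exactly 3. Their sibling levels, 4.23 scaled CPM with a Poisson interval from 0.871 to 12.3, cannot be ordered.

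**Figure D2:**
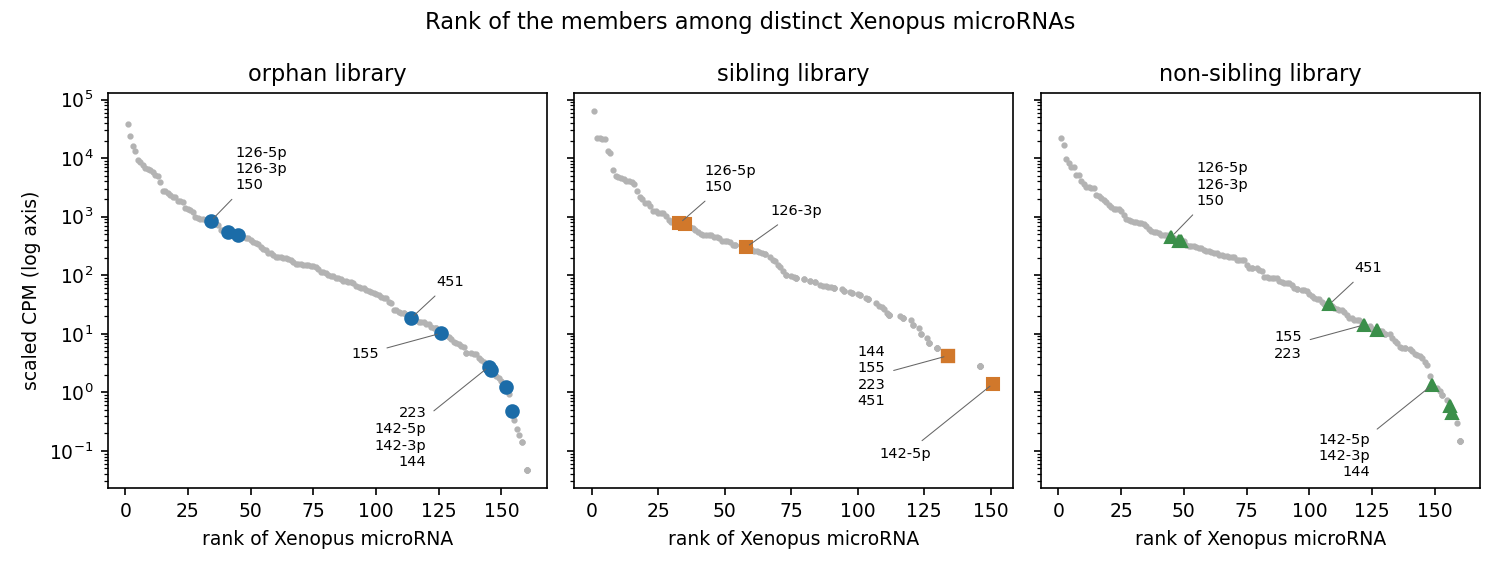
Scaled CPM (log axis) of the distinct Xenopus microRNAs with at least 1 count against their rank in each library, ties at 1 rank, with the members as coloured symbols and labelled by miR number. miR-150 and the miR-126 arms sit at ranks 33 to 58, and the other members at 108 or beyond.

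Of the red cell members, miR-451 was the more abundant in the deeper libraries. xtr-miR-451 had 391 orphan, 3 sibling and 214 non-sibling counts, or 18.5, 4.23 and 31.8 scaled CPM. The non-sibling library was the highest and the sibling library the lowest. The ratio of orphan to sibling was 4.37 (1.48 to 21.3), and the ratio of non-sibling to sibling was 7.52 (2.54 to 36.7). At the orphan level the sibling library would have held 13.1 counts, and at the non-sibling level 22.6, in place of 3. The ratio of orphan to non-sibling was 0.581 (0.491 to 0.6901), a difference beyond counting error but short of 2-fold. Scaling by total counts moved that ratio past 2-fold, to 0.421.

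miR-144, the partner of miR-451, was near the limit of detection as the 3p arm that the Xenopus entry lists. xtr-miR-144 had 10, 3 and 3 counts (orphan, sibling, non-sibling), a sum below the 30 counts asked of an entry before its ratio was called. Its levels were 0.472, 4.23 and 0.445 scaled CPM, and the ratio of orphan to sibling was 0.112 (0.0288 to 0.632, on 3 sibling counts). The opposite arm, for which no Xenopus entry was analysed here, was far more abundant in entries of other species. These arms are shown because they differ in counts on 1 precursor of the lizard Anolis carolinensis.
aca-miR-144-5p: gGAUAUCAucauauacuguaa
aca-miR-144-3p: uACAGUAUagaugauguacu

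aca-miR-144-5p had 232, 7 and 64 counts (orphan, sibling, non-sibling), against 11, 3 and 3 for aca-miR-144-3p. The 5p arm thus made up 95.5% of both arms for orphan (exact interval 92.0 to 97.7%), 70.0% for sibling (34.8 to 93.3%) and 95.5% for non-sibling (87.5 to 99.1%). In scaled CPM the 5p arm stood at 11.0, 9.86 and 9.50. These levels were close to each other, with ratios of 1.11 (0.531 to 2.80) for orphan over sibling and 0.964 (0.442 to 2.49) for non-sibling over sibling. Those intervals still allow changes of more than 2-fold.

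The balance of miR-451 and miR-144 could be read within a library, with no scaling. Against mmu-miR-144-5p, the mouse entry of this arm (245, 7 and 67 counts), miR-451 had 1.60 counts per count in the orphan library (1.36 to 1.88). The number was 3.19 in the non-sibling library (2.42 to 4.27) and 0.429 in the sibling library (0.0715 to 1.88). The non-sibling and orphan intervals did not overlap, while the sibling interval rested on 3 and 7 counts. Against the scarce xtr-miR-144 itself the numbers were 39.1 for orphan (21.0 to 82.2) and 71.3 for non-sibling (24.1 to 348.6), and these intervals overlapped. Summed, the red cell members stood at 18.9 (orphan), 8.45 (sibling) and 32.2 (non-sibling) scaled CPM, and the sibling value rested on 6 counts.

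Nearly all counts of the white cell group came from miR-150, listed there as a microRNA of mature lymphocytes. It made up 96.7% of them for orphan (96.3 to 97.0%), 98.7% for sibling (97.3 to 99.5%) and 93.3% for non-sibling (92.3 to 94.2%). xtr-miR-150 had 10161 orphan, 522 sibling and 2596 non-sibling counts, or 480, 735 and 385 scaled CPM. In scaled CPM the sibling library was the highest, and the 3 Poisson intervals, which leave out the error of the scaling, did not overlap. The orphan level was 0.653 times (0.598 to 0.714) and the non-sibling level 0.524 times (0.477 to 0.577) the sibling level, both short of 2-fold. With upper-quartile scaling the latter became 0.441, past 2-fold, and under total counts it was 0.830. Orphan over sibling was 0.928 with a linear trend on GC content and length taken out. The ratio of orphan to non-sibling was 1.25 (1.19 to 1.30), but 0.901 under total counts. As shares of distinct Xenopus counts, miR-150 took 0.234, 0.287 and 0.267%. The sibling (0.263 to 0.313%) and non-sibling (0.257 to 0.277%) intervals of these shares overlapped. The sibling share is lowered by xtr-miR-92b, which held 44582 of the 181714 counts there, so the overlap does not show equal levels.

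The general blood cell marker miR-142 was close to 0 on both arms, unlike miR-150. Which cells gave the miR-150 counts was not tested. xtr-miR-142-5p had 50, 1 and 9 counts (orphan, sibling, non-sibling), and xtr-miR-142-3p had 26, 0 and 4. The highest level was 2.36 scaled CPM, that of the 5p arm in the orphan library. At that level the sibling library would have held 1.68 counts of the 5p arm, so that a lower sibling level was not detectable at this depth. The 5p arm made up 65.8% of both arms for orphan (54.0 to 76.3%) and 69.2% for non-sibling (38.6 to 90.9%). Between the deeper libraries the orphan level of the 5p arm was 1.77 times (0.861 to 4.09) and that of the 3p arm 2.07 times (0.718 to 8.16) the non-sibling level.

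miR-155, a microRNA of activated lymphocytes and macrophages, was higher in the non-sibling than in the sibling library. xtr-miR-155 had 217 orphan, 3 sibling and 96 non-sibling counts, or 10.3, 4.23 and 14.3 scaled CPM. The ratio of non-sibling to sibling was 3.37 (1.12 to 16.6), and the lower bound fell under 1 with upper-quartile scaling (ratio 2.84) and after a linear trend on GC content and length was taken out (2.95). The ratio of orphan to sibling was 2.43 (0.819 to 11.9) and that of orphan to non-sibling 0.719 (0.563 to 0.924). miR-155 was thus above the orphan level in the non-sibling library by less than 2-fold.

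miR-223, the microRNA of neutrophils, differed most between the deeper libraries. xtr-miR-223 had 58 orphan, 3 sibling and 77 non-sibling counts, although the orphan library was the deepest. In scaled CPM these were 2.74, 4.23 and 11.4, with the non-sibling library the highest. The ratio of orphan to non-sibling was 0.240 (0.167 to 0.341), and this ratio lay between 0.173 and 0.284 under every other scaling tried, past 2-fold in each. The ratio of non-sibling to sibling was 2.71 (0.892 to 13.4) and that of orphan to sibling 0.648 (0.211 to 3.24), neither beyond counting error. Under total counts the ratio of non-sibling to sibling was 4.28, with an interval that excluded 1. The authors' quantile-normalized counts, judged by size alone, gave 3.19.

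Set against miR-150 of the same library, which needs no scaling, the scarce white cell members took different shares. Per 100 counts of miR-150 there were 0.571 counts of miR-223 for orphan (0.433 to 0.739), 0.575 for sibling (0.118 to 1.69) and 2.97 for non-sibling (2.33 to 3.72). Only the non-sibling interval stood apart. For miR-155 the numbers were 2.14 (1.86 to 2.44), 0.575 (0.118 to 1.69) and 3.70 (2.98 to 4.53), and none of the 3 intervals overlapped. The sibling numbers of miR-223 and miR-155 each rested on 3 counts. The direct ratio of orphan to sibling for miR-155, 2.43 (0.819 to 11.9), did not exclude 1, and miR-150 was highest in the sibling library in scaled CPM. miR-451 per 100 counts of miR-126-3p stood at 3.41 for orphan (3.07 to 3.77), 1.42 for sibling (0.290 to 4.19) and 8.16 for non-sibling (7.07 to 9.39). Again the non-sibling library was the highest, beyond counting error against both others.

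**Figure D3:**
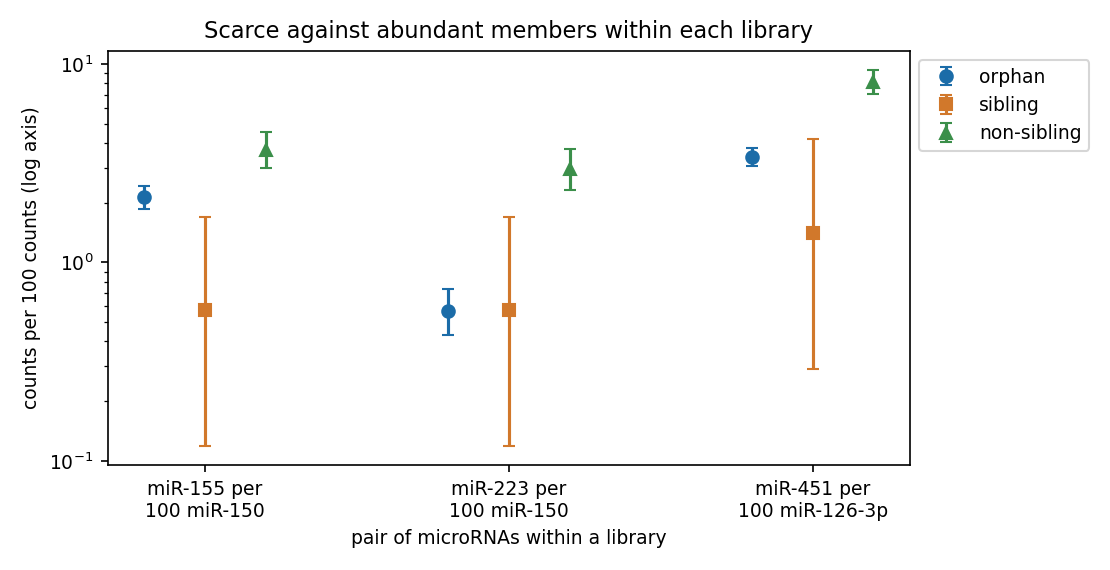
Counts of miR-155 and miR-223 per 100 counts of miR-150, and of miR-451 per 100 counts of miR-126-3p, within each library (log axis), with exact 95% counting intervals. The non-sibling library (triangles) is the highest for each pair, at 3.70, 2.97 and 8.16. Each sibling value rests on 3 counts of the scarce member.

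The endothelial miR-126 was the most abundant family of the list, and its arms differed between libraries. xtr-miR-126-3p had 11469 orphan, 212 sibling and 2622 non-sibling counts, or 542, 299 and 389 scaled CPM. xtr-miR-126-5p had 17613, 545 and 3040 counts, or 832, 768 and 451.3 scaled CPM. In scaled CPM the 3p arm was thus lowest in the sibling library and the 5p arm lowest in the non-sibling library. The orphan level of the 3p arm was 1.81 times the sibling level (1.58 to 2.09), and that of the 5p arm was 1.08 times (0.995 to 1.18). The non-sibling level of the 3p arm was 1.30 times the sibling level (1.13 to 1.51), whereas that of the 5p arm was 0.588 times (0.536 to 0.645). In scaled CPM both arms were higher in the orphan than in the non-sibling library, by 1.39 (1.33 to 1.45) and 1.84 times (1.77 to 1.92). None of these ratios reached 2-fold. Under total counts the 3p arm did, with 2.08 for orphan over sibling and 2.06 for non-sibling over sibling. Upper-quartile scaling took the 5p arm past 2-fold, with 0.494 for non-sibling over sibling and 2.19 for orphan over non-sibling. Other ratios came close to 1 under total counts, at 1.01 for the 3p arm (orphan over non-sibling) and 0.931 for the 5p arm (non-sibling over sibling). Of distinct Xenopus counts the 3p arm took 0.265% (orphan) and 0.269% (non-sibling). The 5p arm took 0.300% (sibling) and 0.312% (non-sibling), and the intervals overlapped in both pairs. The sibling share of the 5p arm is lowered by the large sibling count of xtr-miR-92b, so that overlap does not show equal levels.

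The arm shares of miR-126 need no scaling between libraries, since both counts of a share come from the same library. The 5p arm made up 60.6% of both arms for orphan (exact interval 59.999 to 61.1%), 72.0% for sibling (68.6 to 75.2%) and 53.7% for non-sibling (52.4 to 55.0%). Between these X. tropicalis entries the 5p arm was the larger in every library, and the 3 intervals did not overlap. Arm shares of precursors outside the list were not calculated, so the difference is not read as particular to miR-126. The miR-126 shares depend on the 3p entry that is counted. The platypus entry oan-miR-126-3p, 1 edit away, had 13504, 227 and 2936 counts, the last close to the 3040 non-sibling counts of the 5p arm. The zebrafish entry given below had far fewer. The arms differ in GC content, with 38.1% in the 5p and 42.9% in the 3p arm. With a linear trend on GC content and length taken out, the 5p arm was at 0.461 for non-sibling over sibling, past 2-fold, and the 3p arm at 1.17. For orphan over sibling they were at 0.798 and 1.61. That removal was applied to ratios between libraries, and the part of sequence composition in the arm shares themselves was not tested.

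**Figure D4:**
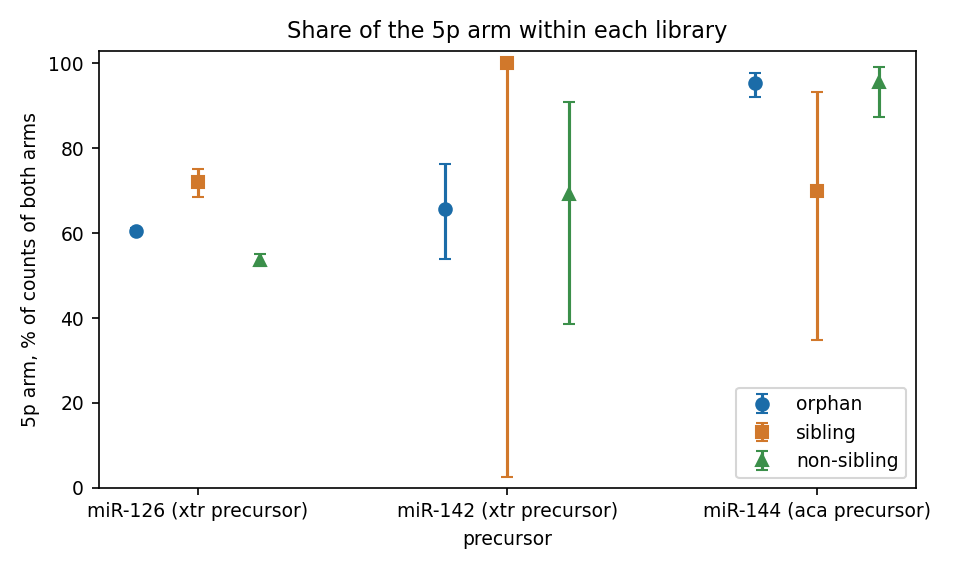
Share of the 5p arm among the counts of both arms of miR-126 and miR-142 (X. tropicalis precursors, xtr) and of miR-144 (Anolis carolinensis precursor, aca), in percent, for the orphan (circles), sibling (squares) and non-sibling (triangles) libraries with exact binomial 95% intervals. For miR-126 the shares are 60.6, 72.0 and 53.7%, and for miR-142 the sibling value rests on 1 count.

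The count of miR-126-3p also depended on the species entry. dre-miR-126a-3p, the zebrafish entry, has the same 21 bases as xtr-miR-126-3p but 1032, 20 and 348 counts, that is 8.998, 9.43 and 13.3% of the counts under the X. tropicalis name. Taken from that entry, the ratio of orphan to non-sibling was 0.944 (0.835 to 1.07), against 1.39 from the X. tropicalis entry. For miR-150 the platypus entry oan-miR-150-5p, again of identical sequence, had 7122, 421 and 1801 counts, or 70.1, 80.7 and 69.4% of the X. tropicalis counts. Its ratio of non-sibling to sibling was 0.4509 (0.405 to 0.503), past 2-fold, where the X. tropicalis entry gave 0.524. The other 5 entries with a member's sequence had the member's own counts. How the reads were assigned is not given in the sources used here, and its part in these differences was not tested.

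Across the list, an entry counted as higher or lower where its ratio was at least 2, or at most 0.5, with an interval that excluded 1. It also needed 30 or more counts summed over the libraries, which 8 of the 9 members and 153 of the 166 Xenopus sequences had. For orphan over sibling 1 of the 8 members was higher (miR-451) and none lower, against 9.8% of Xenopus sequences higher and 13.1% lower. For non-sibling over sibling 2 were higher (miR-451 and miR-155) and none lower, against 13.7% and 11.1%. For orphan over non-sibling none was higher and 1 was lower (miR-223), against 9.8% and 12.4%. Counts of 0 to 2 among 8 members are near those background shares. The comparisons share libraries and are not separate results.

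All calls against the sibling library rested on 3 sibling counts. Of the 15 Xenopus sequences higher in orphan over sibling 3 had 3 sibling counts or fewer, and of the 21 higher in non-sibling over sibling 5 did. The median log2 ratio of the 8 members was 0.50 for orphan over sibling (range -0.84 to 1.91), against 0.17 over the 153 Xenopus sequences and 0.11 over all 866 entries with enough counts. It was 0.15 for non-sibling over sibling (-0.93 to 2.69), against 0.06 and -0.06. For orphan over non-sibling it was 0.40 (-2.06 to 0.91), against 0.12 and 0.10. Without the scarce miR-142, whose arms hold 1 and 0 sibling counts, the medians over the other 6 members were 0.49, 0.80 and -0.08 in the same order. The first hardly moved while the others changed, and no direction is read from any of these medians.

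**Figure D5:**
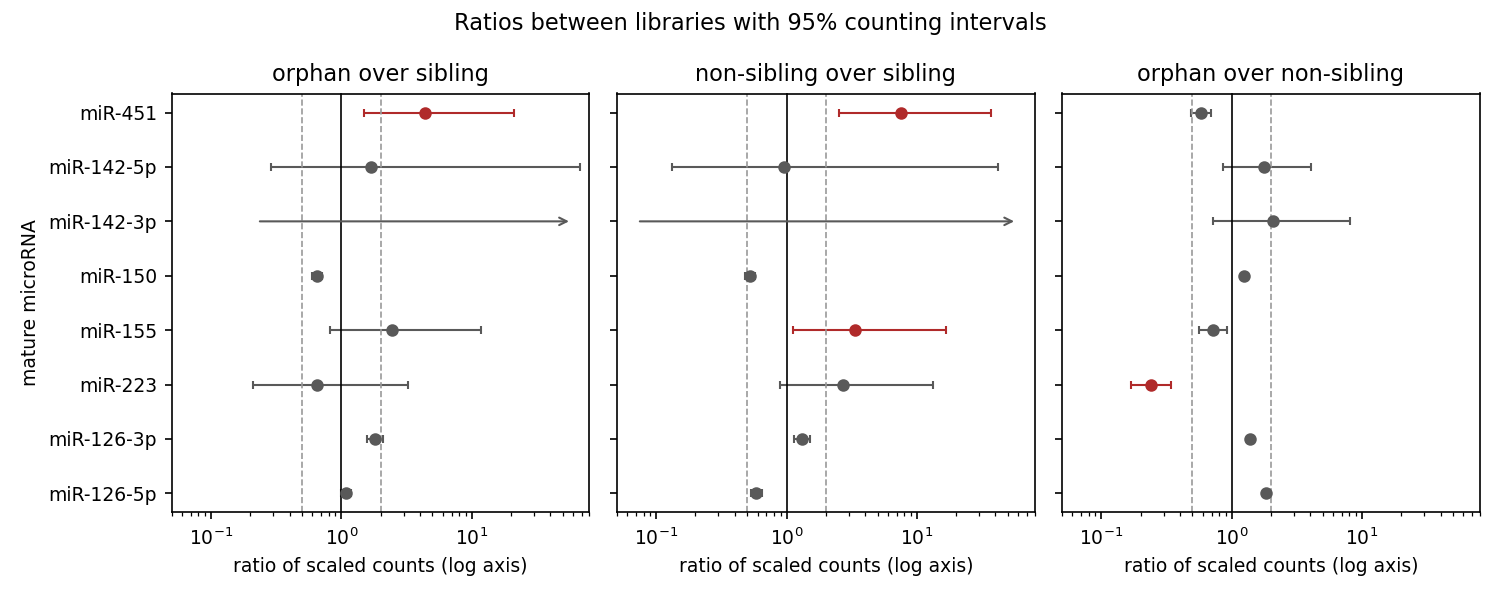
Ratio of scaled counts (log axis) between each pair of libraries for the 8 members with enough counts, with exact conditional 95% intervals; dashed lines mark 2-fold, red marks ratios past 2-fold whose interval excludes 1, and arrows mark intervals with no upper bound (0 sibling counts). miR-451 is at 4.37 and 7.52 over the sibling library, miR-155 at 3.37 in non-sibling over sibling, and miR-223 at 0.240 in orphan over non-sibling.

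The sums over the list followed the abundant members. Summed, the members stood at 1889 (orphan), 1820 (sibling) and 1286 (non-sibling) scaled CPM. The orphan sum was 1.04 times the sibling sum (0.982 to 1.10), the non-sibling sum was 0.707 times the sibling sum (0.666 to 0.7496), and the orphan sum was 1.47 times the non-sibling sum (1.44 to 1.504). The ratio of the non-sibling to the sibling sum depended on the scaling and turned to 1.12 under total counts. Without miR-126 and miR-150 the sums were 35.5, 18.3 and 59.8 scaled CPM, with the non-sibling library the highest, an order that miR-144 and both arms of miR-142 did not follow. That non-sibling sum was 3.27 times the sibling sum (1.89 to 6.19, on 13 sibling counts), and the orphan sum was 0.594 times the non-sibling sum (0.525 to 0.672).

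Within the list, the endothelial members took 72.7% of the members' counts for orphan (72.3 to 73.2%), 58.6% for sibling (55.8 to 61.3%) and 65.4% for non-sibling (64.4 to 66.4%). White cell members took 26.3% (25.9 to 26.7%), 40.9% (38.2 to 43.7%) and 32.1% (31.1 to 33.1%). Red cell members took 1.003% (0.907 to 1.11%), 0.464% (0.171 to 1.01%) and 2.51% (2.19 to 2.86%). The endothelial share was thus highest in the orphan and the red cell share in the non-sibling library. That red cell share was nearly all miR-451 (214 of 217 non-sibling counts). The other red cell member, xtr-miR-144, did not follow it, at 0.472, 4.23 and 0.445 scaled CPM on 10, 3 and 3 counts. The white cell share was highest in the sibling library through miR-150 alone. Without miR-150 the white cell members took 0.878% (0.789 to 0.974%), 0.542% (0.218 to 1.11%, on 7 counts) and 2.15% (1.85 to 2.48%), with the non-sibling library the highest. That order came from miR-155 and miR-223. Both arms of miR-142 went the other way between the deeper libraries, at 1.77 and 2.07 for orphan over non-sibling in scaled counts, within counting error. These shares are parts of 1 whole and do not move independently.

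A second list of blood and vessel microRNAs held miR-486, miR-146 and miR-147 of blood cells, miR-221 and miR-222 of the endothelium, and miR-143 and miR-145 of smooth muscle and pericytes, with 6 Xenopus sequences. None of the 6 passed the size rule in any of the 3 comparisons, where 9.8 to 13.7% of Xenopus sequences did in each direction, so that 0 of 6 is near the background. xtr-miR-143 had 1820, 1966 and 1963 scaled CPM (orphan, sibling, non-sibling), and xtr-miR-145 had 66.3, 87.3 and 57.0. xtr-miR-146b had 979, 883 and 828 scaled CPM, with the orphan library the highest. The scarce xtr-miR-146a had 3.59, 7.04 and 5.79, with the orphan library the lowest, on 76, 5 and 39 counts. Of the endothelial pair, xtr-miR-221 was highest in the non-sibling library (153, 120 and 226 scaled CPM) and xtr-miR-222 lowest there (431, 485 and 293). The red cell microRNA miR-486 was listed only as a cattle entry, with 1 count in the orphan library and 0 in both others.

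The authors' deposited table compares quantile-normalized counts. For non-sibling over sibling the log2 ratio in the authors' deposited table stood at 1.57 for xtr-miR-451, 0.76 for xtr-miR-155, 0.60 for xtr-miR-223 and -0.60 for xtr-miR-150. For the arms of miR-126 the authors' deposited table gave 0.68 for the 3p and -0.59 for the 5p arm in the same comparison. For non-sibling over orphan the authors' deposited table gave 0.65 for xtr-miR-223 and 0.46 for xtr-miR-451. For these entries the signs were those of the ratios above. Among members with enough counts, both arms of miR-142 had the opposite sign for non-sibling over sibling. The authors' deposited table gave 0.09 for the 5p and 0.07 for the 3p arm, against log2 ratios of -0.58 and -0.08 here, on 1 and 0 sibling counts. The deposited log2 ratios match, to within 4.14e-05 over all 1272 entries, quantile-normalized counts with the authors' median of 102.3 added to each, an offset that draws scarce entries towards 0. Without an offset the same quantile-normalized counts gave larger ratios of non-sibling to sibling than the scaled counts, at 9.37 against 7.52 for xtr-miR-451, 3.92 against 3.37 for xtr-miR-155 and 3.19 against 2.71 for xtr-miR-223.

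Over the 3 libraries, the patterns nearest to the leading member of each group were found by the distance between log2 ratios to the sibling library, among the other Xenopus sequences with enough counts. Nearest to xtr-miR-451 were xtr-miR-22-5p (distance 0.45), xtr-miR-17-3p (0.79) and xtr-miR-212 (0.798), which held 1, 0 and 3 sibling counts. Nearest to xtr-miR-150 were xla-miR-133d (0.14), xtr-let-7g (0.16) and xtr-miR-204 (0.28). xtr-miR-126-5p was closest to xtr-miR-210 (0.024), xtr-miR-96 (0.14) and xtr-miR-148a (0.16). With 3 libraries such a likeness is a description of 2 ratios only.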

How the data were processed

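The authors deposited 1 table with, per mature microRNA entry, raw read counts for each library, per the file headers; these counts are whole numbers with no normalization. The table also holds a signal that the authors made from these counts, namely quantile-normalized counts, and deposited log2 ratios of these for the 3 pairs of libraries, with an offset that the headers do not state and the values match to the authors' median. How reads were aligned and counted, and against which microRNA release or genome build, is not given in the sources used here. Per the labels, RNA was extracted with the RecoverAll kit and the named library kit is one for messenger RNA, although the molecules are described as microRNA. Depth ranged from 865654 to 22538325 counts per library. The 1 unnamed line, which holds a median, was left out.

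Libraries were grouped by their titles, 1 per condition. Counts were scaled by TMM over all 1272 entries (edgeR 4.0.16, R 4.3.3), with factors of 0.820 (sibling), 0.939 (orphan) and 1.30 (non-sibling). Ratios carry the exact conditional interval (Clopper-Pearson), log2 ratios have 0.5 added to each count, and the calculation was tested on simulated Poisson counts. Of entries whose sequences are identical or contained in each other, 1 was kept. Alternatives were scaling by total counts, DESeq2 1.42.0 size factors, upper quartiles, TMM over Xenopus entries and the authors' quantile-normalized counts, other filters (none, or 150 counts), a 1.5-fold rule, every member entry counted and the sum without the most abundant member. TMM over entries with at least 30 counts, TMM without the sibling library and removal of a linear trend on GC content and length were added after seeing the data. Every member was named, as were the members of a list of other blood and vessel families and the 3 entries nearest in pattern to the leading member of each group. The members and lists were chosen with earlier results of these data known. Python 3.11.15 with numpy 2.4.6, pandas 2.3.3, scipy 1.17.1 and matplotlib 3.10.9 was used.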

Additional observations from a re-analysis of the deposited data

How the results depend on the processing

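No paired analysis was possible because there is 1 library per condition, and for the same reason no replicate could be left out. Counts of members past the size rule and their sums moved as follows. Under total counts 2, 4 and 2 members passed for orphan over sibling, non-sibling over sibling and orphan over non-sibling, in place of 1, 2 and 1, and the ratios of the summed members were 1.19, 1.12 and 1.06, in place of 1.04, 0.707 and 1.47. With the authors' quantile-normalized counts, called by size alone, 5, 4 and 2 passed, and the first 2 sums gave 1.22 and 0.845. A 1.5-fold rule gave 3, 4 and 3. The shares of all Xenopus sequences that pass under these alternatives are not given here. The counts of members under them, here and below, are therefore not read as a result about the members. For orphan over sibling no filter gave 2 (xtr-miR-144 added, as lower), and TMM over Xenopus entries gave a sum ratio of 0.936. For non-sibling over sibling upper quartiles gave 3 members in place of 2 (xtr-miR-451 higher, xtr-miR-150 and xtr-miR-126-5p lower, xtr-miR-155 lost), and no filter gave 3 (xtr-miR-144 added, as lower). The sum ratio was 0.751 with DESeq2 size factors, 0.594 with upper quartiles and 0.793 without miR-126-5p, the most abundant member. For orphan over non-sibling upper quartiles gave 3 members and a sum ratio of 1.74, and the filter of 150 counts, which drops miR-223, gave 0. That sum ratio was 1.42 with DESeq2 size factors, 1.35 with TMM over Xenopus entries, 1.40 with TMM over entries past the filter and 1.27 without miR-126-5p. Total counts moved all log2 ratios by 0.20, 0.66 and -0.47, and upper quartiles those of the last 2 comparisons by -0.25 and 0.25.

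Of 162 ratios of single members under alternatives, 125 stayed within the counting interval of the main ratio, 37 moved out of it and none that passed the size rule turned its direction. TMM without the sibling library left the orphan over non-sibling ratios unchanged. Ratios of scarce members over the sibling library had wide intervals, such as 0.131 to 41.6 for xtr-miR-142-5p in non-sibling over sibling. The 125 is therefore not read as a measure of stability. In 16 of the 162 a member came to pass the size rule or ceased to. miR-451 passed over the sibling library under each scaling and with the GC content and length trend removed (3.07 to 5.93 for orphan, 5.77 to 11.9 for non-sibling). Both low ends came from that removal, and 5.93 from the quantile-normalized counts, called by size alone. miR-223 passed in orphan over non-sibling under each of these settings. The sibling library limits detection: 6 of the 9 members held 3 counts or fewer there, against 33 of the 166 distinct Xenopus sequences, members included.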
